A study of Mus musculus with 3 samples.

Results

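The Wnt ligands, their receptors and their inhibitors were followed across 7 cell classes of the mouse prefrontal cortex on postnatal day 6, in tissue collected after 1 exposure to about 3% sevoflurane, an inhaled anaesthetic. The members were 40 of the 20368 genes of the table: every gene whose symbol begins with Wnt, Fzd, Sfrp or Dkk followed by a digit, together with Lrp5, Lrp6, Axin2, Lef1, Tcf7l2, Rspo1, Rspo3, Znrf3, Wif1 and Apcdd1. By role they were 13 ligands, 12 receptors, 9 inhibitors, 3 genes of the R-spondin and Znrf3 branch, and 3 genes that act on or answer to beta-catenin. The rule goes by gene names and uses no measured value, although the set was chosen with earlier results of these data known. The series has 1 group of 3 droplet single-cell libraries, replicates 1, 2 and 3, from mice of both sexes with no strain, genotype or allele given. It has no unexposed group, so every comparison is between cell classes within exposed tissue and none measures a response to sevoflurane. The p-values measure how far the differences between classes vary from library to library. The labels do not say that the libraries came from separate animals, so that variation may be technical.

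Wnt proteins are secreted, lipid-bearing signals that bind Frizzled receptors together with the co-receptor Lrp5 or Lrp6. In the canonical branch this stops the destruction of beta-catenin, which then enters the nucleus and acts with DNA-binding partners such as Lef1 and Tcf7l2; in other branches Frizzleds direct cell polarity and movement. In the developing brain the pathway is known for driving vessel ingrowth and blood-brain barrier formation and for timing the maturation of oligodendrocytes.

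Each class was defined by a pair of genes both detected in a cell. These were Bmp4 with Gpr17 for committed oligodendrocyte precursors (committed OPCs), Pdgfra with Lhfpl3 for oligodendrocyte precursors (OPCs), Dlx1 with Sp9 for neuroblasts, Cldn5 with Flt1 for endothelium, Dcn with Col1a1 for fibroblasts, Kcnj8 with Vtn for pericytes and Aqp4 with Gja1 for astrocytes. Of 14192 cells, 10118 met exactly 1 pair, 700 met more and were dropped, and 3374 met none. The classes held 350 committed OPCs, 2676 OPCs, 1833 neuroblasts, 784 endothelial cells, 73 fibroblasts, 870 pericytes and 3532 astrocytes. Fibroblasts numbered only 29, 20 and 24 in libraries 1, 2 and 3, where 3 counts in the whole class already correspond to 6.50 CPM, against 0.140 CPM in astrocytes. The independent markers of every class were highest in that class, apart from Cspg4, higher in pericytes than in OPCs, and Sox10, higher in committed OPCs than in OPCs. Libraries held 24612481 to 29581504 depth-corrected counts, with a median of 5558 to 5860.0 per cell, and 26 to 35 cell barcodes were shared by each pair of libraries.

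Levels are corrected counts scaled to CPM (per 1000000 counts of a cell), averaged over the cells of a class within a library, and values for libraries 1, 2 and 3 are given in that order. Differences are log2 folds on the log2(CPM + 10) scale with their standard error (SE), which understates the change of genes with low levels. They were tested with limma, and a difference passed where the Benjamini-Hochberg adjusted p over all 10041 genes tested was under 0.05. Of the 40 members, 20 averaged 10 CPM or more across the 7 classes and were tested: 4 ligands, 8 receptors, 4 inhibitors, Znrf3 and the 3 genes Axin2, Lef1 and Tcf7l2. All of these 20 differed among the 7 classes by limma's F test, beside 92.7% of all genes tested. Of the 20, 8 would have fallen under the minimum without their highest class and so had to differ: Wnt4, Wnt7a, Wnt7b, Fzd4, Fzd9, Fzd10, Dkk2 and Sfrp2. Their highest classes were fibroblasts for Wnt4, astrocytes for Wnt7a, Fzd9 and Fzd10, OPCs for Wnt7b, endothelium for Fzd4, and pericytes for Dkk2 and Sfrp2. The filter thus favoured a difference for them in comparisons with that class. Counts and medians of members in such comparisons are partly set by it.

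Promoter sequence is shown for 4 members that were high in 1 class, so that the stretch before each start can be read beside the levels: Tcf7l2 in committed OPCs, Lef1 and Fzd4 in endothelium, and Sfrp2 in pericytes. Each run is the 250 bases before a RefSeq transcription start on the plus strand of GRCm38.p6, the assembly of mm10; where a gene has several starts the most upstream is shown. The windows were searched on both strands for CTTTGAT (a TCF/LEF motif), AACAAT (a SOX motif) and CCGGAA (an ETS motif), and capitals mark a match. 
Tcf7l2, chr19:55741560-55741809: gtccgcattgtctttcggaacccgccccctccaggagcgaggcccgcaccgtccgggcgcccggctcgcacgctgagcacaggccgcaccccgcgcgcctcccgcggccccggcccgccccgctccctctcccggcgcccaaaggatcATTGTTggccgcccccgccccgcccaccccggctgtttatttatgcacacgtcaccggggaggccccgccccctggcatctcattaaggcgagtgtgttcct
Lef1, chr3:131110047-131110296: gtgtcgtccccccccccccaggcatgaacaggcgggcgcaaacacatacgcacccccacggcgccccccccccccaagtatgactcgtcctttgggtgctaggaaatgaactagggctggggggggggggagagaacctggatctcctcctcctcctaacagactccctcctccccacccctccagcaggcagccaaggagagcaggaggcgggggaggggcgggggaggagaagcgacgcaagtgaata
Fzd4, chr7:89404116-89404365: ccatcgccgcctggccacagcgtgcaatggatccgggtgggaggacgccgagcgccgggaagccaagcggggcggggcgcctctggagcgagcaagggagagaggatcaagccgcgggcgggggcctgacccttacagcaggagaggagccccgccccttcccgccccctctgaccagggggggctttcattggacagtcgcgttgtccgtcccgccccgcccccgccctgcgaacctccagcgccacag
Sfrp2, chr3:83766071-83766320: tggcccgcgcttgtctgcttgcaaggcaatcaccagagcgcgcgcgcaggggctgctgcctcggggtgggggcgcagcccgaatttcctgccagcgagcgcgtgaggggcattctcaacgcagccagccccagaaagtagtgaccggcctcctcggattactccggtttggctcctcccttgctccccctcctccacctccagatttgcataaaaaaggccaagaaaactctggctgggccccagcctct
The only match in these 4 windows was the SOX motif, on the minus strand, 102 bases before the Tcf7l2 start. Windows could be read for 25 members, 32 in all, and each motif matched 2 of them. TCF/LEF matched a window of Wnt5b and 1 of Wnt11, the SOX motif Tcf7l2 and Fzd10, and the ETS motif Fzd10 and Wnt11. Over 32851 windows of all genes the shares were 3.21% for the TCF/LEF motif, 9.42% for the SOX motif and 12% for the ETS motif. A match describes letters only.

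**Figure D1:**
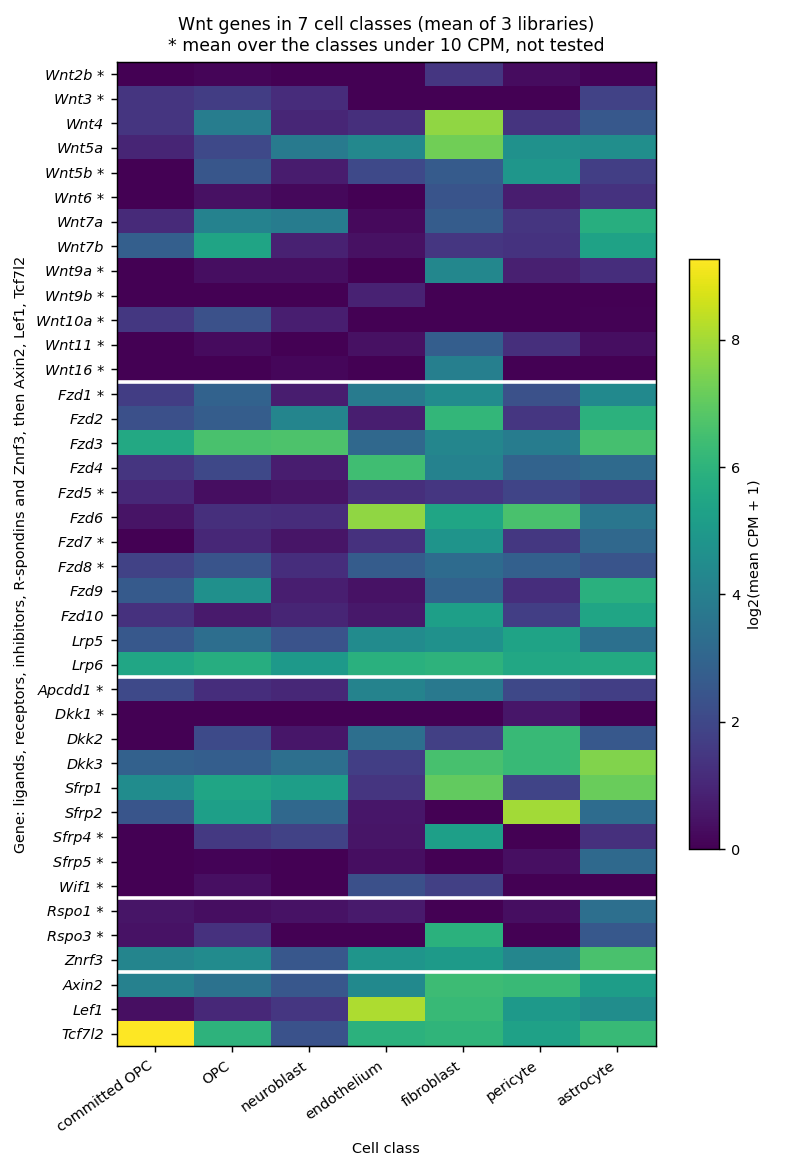
Mean level of the 40 members (rows, ordered by role) in the 7 classes (columns), as log2(mean CPM + 1) over 3 libraries; brighter (yellow) cells are higher, dark cells are near 0, and an asterisk marks a member that was not tested. Tcf7l2 stands out in committed OPCs at 618 CPM, Lef1 and Fzd6 in endothelium, Sfrp2 in pericytes, and Wnt4 and Wnt5a in fibroblasts.

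Among the ligands, Wnt7a and Wnt7b, the signals to which brain endothelium responds through Reck and Adgra2, were highest in astrocytes and OPCs. Wnt7a measured 61.0, 51.1 and 53.7 CPM in astrocytes, followed by 15.9, 16.3 and 17.1 CPM in OPCs and 12.7, 7.39 and 21.4 CPM in neuroblasts. Astrocytes lay above every other class in all libraries, while OPCs and neuroblasts overlapped. Wnt7b measured 39.8, 39.1 and 46.1 CPM in OPCs and 38.8, 35.1 and 44.7 CPM in astrocytes, which overlapped. In committed OPCs Wnt7b was at 3.29, 9.56 and 4.92 CPM, and Wnt7a at 1.35, 2.18 and 0 CPM. Both were close to absent from vessel cells: endothelium held 1 corrected count of each, and pericytes 8 of each.

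Wnt4, best known from kidney and gonad development, and Wnt5a, the usual example of a ligand acting through polarity and movement, peaked in fibroblasts. Wnt4 measured 415, 175 and 48.0 CPM there, on 74, 21 and 7 corrected counts, and its next class was OPCs at 15.2, 16.4 and 10.8 CPM. Fibroblasts were above OPCs in every library, but their own libraries differed by more than any other class did for this gene. Wnt5a measured 248, 146 and 59.4 CPM in fibroblasts, with the same library highest and the same library lowest. Pericytes (23.7, 22.8 and 27.4 CPM), astrocytes (20.6, 23.5 and 25.1 CPM) and endothelium (14.1, 17.8 and 25.2 CPM) followed with overlapping levels, and committed OPCs had 0, 2.90 and 0 CPM.

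The other 9 ligands were below the minimum. Wnt5b, a close relative of Wnt5a, measured 31.2, 26.0 and 26.6 CPM in pericytes, and the next class averaged 5.36 CPM. Wnt9a measured 29.1, 14.7 and 12.2 CPM in fibroblasts, where 9 counts were found, against an average of 1.31 CPM in astrocytes, the second class. Wnt16 had 7 of its 8 counts in fibroblasts, at 0, 14.9 and 30.5 CPM. Wnt2b, Wnt6 and Wnt11 also had their highest mean in fibroblasts, at 1.75 to 5.82 CPM, all under the level of 3 counts in that class. Wnt3 (2.58 CPM in astrocytes), Wnt10a (3.94 CPM in OPCs) and Wnt9b (0.845 CPM in endothelium, from all 4 of its counts) were low throughout.

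**Figure D2:**
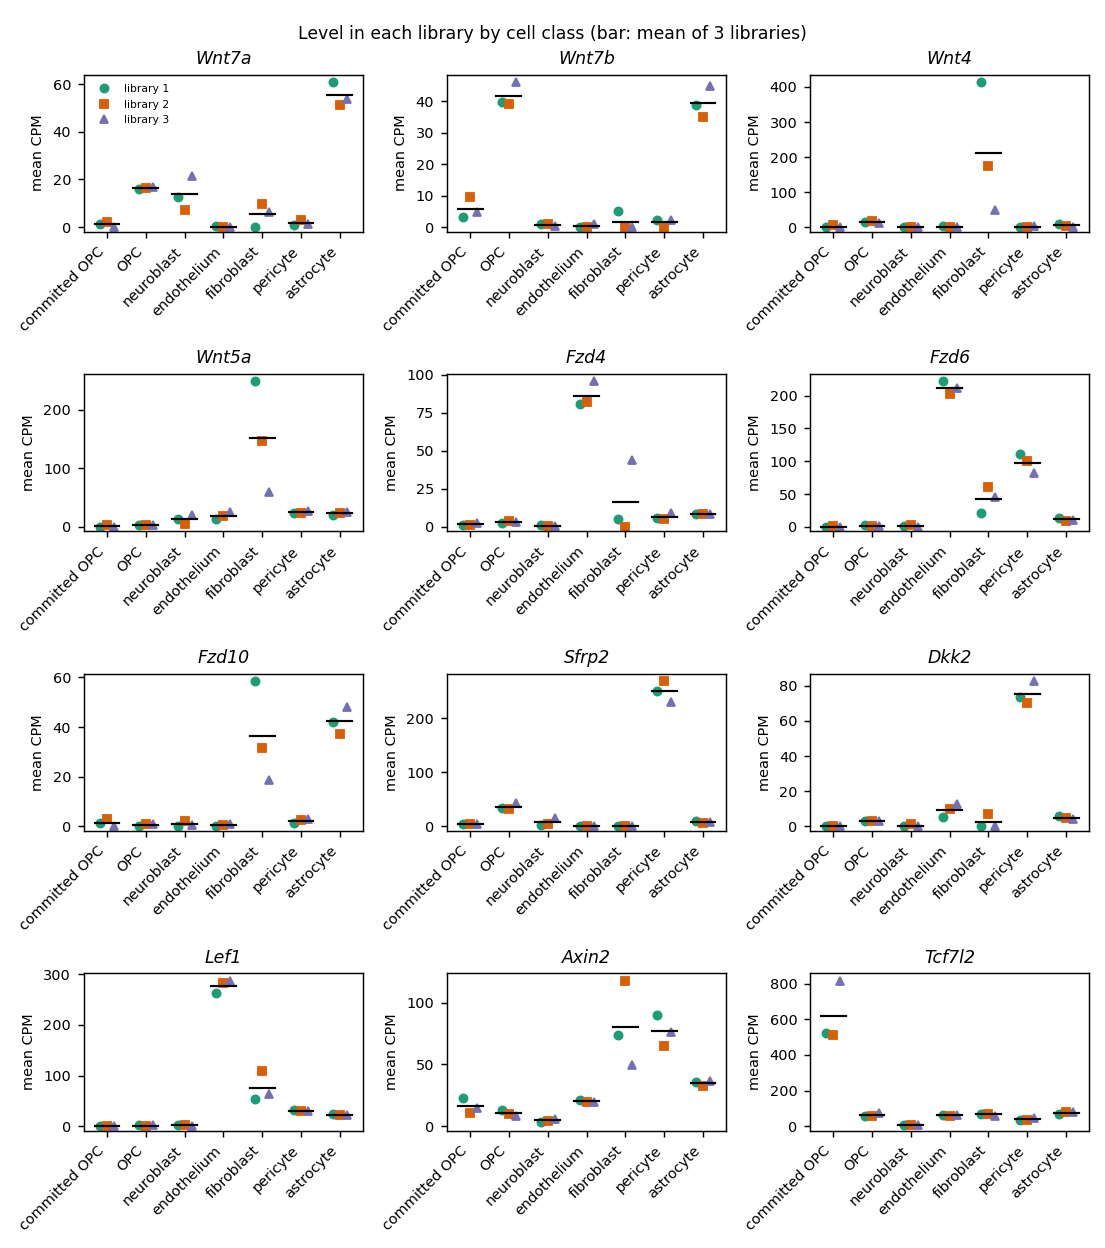
Level (mean CPM, vertical axis) of 12 members in the 7 classes; each point is 1 library and the bar is the mean of 3 libraries. The 3 libraries lie close together in most classes, while fibroblasts, with 20 to 29 cells per library, spread most, as for Wnt4 at 48.0 to 415 CPM.

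Among the receptors, Fzd4 and Fzd6 were highest in endothelium. Fzd4, the Frizzled that also binds Norrin, measured 80.6, 82.3 and 95.5 CPM in endothelium. The second class by mean was fibroblasts at 5.42, 0 and 43.9 CPM, where library 3 held 7 of 8 counts, and no other class exceeded 9.22 CPM in a library. Fzd6, a receptor known from planar cell polarity, measured 222, 203 and 212 CPM in endothelium and 111, 99.7 and 82.3 CPM in pericytes. Fibroblasts followed at 20.5, 61.3 and 44.9 CPM and astrocytes at 13.8, 9.54 and 11.2 CPM, and committed OPCs, OPCs and neuroblasts averaged 0.408 to 1.36 CPM. Endothelium lay above pericytes, and pericytes above fibroblasts, with no overlap.

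Fzd3, needed for axon guidance, had the opposite distribution. It measured 108, 101 and 97.1 CPM in neuroblasts, 96.6, 92.5 and 102 CPM in OPCs and 98.3, 88.9 and 91.6 CPM in astrocytes. These classes overlapped. Committed OPCs followed at 41.7, 59.3 and 41.4 CPM, and fibroblasts, pericytes and endothelium averaged 18.1, 13.9 and 7.73 CPM.

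Fzd9 was highest in astrocytes, and Fzd10 and Fzd2 in astrocytes and fibroblasts. Fzd9 measured 56.6, 48.2 and 70.1 CPM in astrocytes and 27.0, 22.3 and 23.2 CPM in OPCs, and averaged 6.62 CPM or less in the other classes. Fzd10 measured 42.0, 37.4 and 48.3 CPM in astrocytes and 58.5, 31.7 and 18.9 CPM in fibroblasts, which overlapped, and the other 5 classes averaged 0.511 to 2.34 CPM. Fzd2, a receptor for Wnt5a, likewise overlapped between fibroblasts (67.6, 47.6 and 92.1 CPM) and astrocytes (69.9, 55.5 and 60.0 CPM). The co-receptors were spread more evenly: Lrp6 averaged 30.9 CPM in neuroblasts, its lowest class, and 62.9 CPM in fibroblasts, its highest, and Lrp5 4.18 CPM in neuroblasts and 40.9 CPM in pericytes. Of the 4 untested receptors, Fzd1 averaged 21 CPM in fibroblasts and 20.1 CPM in astrocytes, Fzd7 26.8 CPM in fibroblasts on 13 counts, Fzd8 8.43 CPM in fibroblasts and Fzd5 2.78 CPM in pericytes.

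Of the 4 tested inhibitors, Dkk3 was highest in astrocytes, Dkk2 and Sfrp2 in pericytes, and Sfrp1 in astrocytes and fibroblasts, which overlapped. Dkk3, a divergent relative of the Lrp6-blocking Dickkopfs, measured 199, 189 and 159 CPM in astrocytes, above 115, 95 and 70.6 CPM in fibroblasts and 90.1, 74.2 and 61.4 CPM in pericytes. The other 4 classes averaged 2.27 to 9.54 CPM. Dkk2, which binds Lrp6, measured 73.8, 70.2 and 82.6 CPM in pericytes and 5.57, 9.85 and 12.8 CPM in endothelium, with no overlap, and committed OPCs had no count.

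The secreted Frizzled-related proteins carry a Frizzled-like domain and bind Wnts outside the cell. Sfrp2 measured 251, 269 and 231 CPM in pericytes, 34.3, 32.4 and 43.7 CPM in OPCs and 10.2, 7.35 and 8.4 CPM in astrocytes, and not 1 count was found in 73 fibroblasts. Sfrp1 measured 171, 139 and 113 CPM in astrocytes, 49.8, 40.6 and 36.4 CPM in OPCs and 38.2, 45.4 and 24.4 CPM in neuroblasts. Sfrp1 in fibroblasts was 35.4, 69.7 and 285 CPM, so that library 3, on 46 counts, set its mean of 130 CPM. That range overlapped the astrocyte values.

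The other inhibitors were not tested. Apcdd1, a membrane inhibitor known in brain vessels, measured 20.4, 13.3 and 17.0 CPM in endothelium, and overlapped 15.8, 15.1 and 6.26 CPM in fibroblasts, which rested on 6 counts. Sfrp5 measured 9.35, 9.01 and 5.82 CPM in astrocytes, which held 172 of its 175 counts. Sfrp4 was found in fibroblasts of library 3 alone among fibroblasts, at 0, 0 and 110 CPM, so its mean of 36.8 CPM rests on that library. Wif1, a secreted Wnt-binding protein, averaged 3.78 CPM in endothelium, and Dkk1, the classical Lrp6 blocker, had 2 counts, both in pericytes.

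R-spondins are secreted proteins that strengthen Wnt signalling by removing Znrf3, a ubiquitin ligase that takes Frizzleds off the membrane. Znrf3 measured 98.2, 93.7 and 94.8 CPM in astrocytes, with no overlap with fibroblasts, its second class, at 31.5, 45.7 and 18.2 CPM. It was lowest in neuroblasts at 2.20, 6.61 and 5.51 CPM. Rspo1 had 227 of 240 counts in astrocytes, at 9.02, 12.6 and 7.07 CPM. Rspo3 was 15.3, 7.17 and 156 CPM in fibroblasts, where 25 of 29 counts came from library 3, and 5.94, 4.34 and 4.24 CPM in astrocytes.

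Of the 2 member genes that encode DNA-binding partners of beta-catenin, Lef1 was highest in endothelium and Tcf7l2 in committed OPCs. Lef1 measured 263, 283 and 287 CPM in endothelium, 54.2, 110 and 63.0 CPM in fibroblasts, 32.4, 29.4 and 29.0 CPM in pericytes and 24.7, 21.2 and 21.1 CPM in astrocytes. Endothelium did not overlap any other class, and the OPC line and neuroblasts averaged 1.79 CPM or less. Tcf7l2, known to appear as oligodendrocytes begin to differentiate, measured 523, 513 and 817 CPM in committed OPCs. In the other glia and the vessel cells Tcf7l2 averaged 38.4 CPM in pericytes to 74.8 CPM in astrocytes, and in neuroblasts 4.09 CPM. Axin2, a scaffold of the beta-catenin destruction complex and a widely used target gene of the pathway, measured 73.6, 118 and 49.7 CPM in fibroblasts and 90.1, 65.2 and 76.1 CPM in pericytes, which overlapped. Axin2 in astrocytes was 35.8, 32.7 and 36.2 CPM, in endothelium 20.9, 19.6 and 19.4 CPM, and lowest in neuroblasts at 3.68, 4.35 and 5.98 CPM. The order of Axin2 thus differed from that of Lef1: endothelium was highest for Lef1, whereas for Axin2 it stood below fibroblasts, pericytes and astrocytes. Pathway genes outside the members also differed in order. By mean level Nkd1 (552 CPM), Ccnd1 (384 CPM), Notum (176 CPM) and Tcf7 (140 CPM) were highest in endothelium, where Notum overlapped fibroblasts. Sp5 in endothelium was below fibroblasts (32.5 CPM) and astrocytes (21.8 CPM), and Myc was lowest in endothelium. Which of these genes follows pathway activity was not tested.

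Committed OPCs were compared with OPCs, from which they arise. Tcf7l2 rose and the glial ligands fell. Tcf7l2 averaged 618 ± 173 CPM in committed OPCs and 62.8 ± 11.2 CPM in OPCs (SD over n = 3 libraries), and its log2 fold was 3.08 ± 0.15 (SE; limma adjusted p = 2.2e-11). OPC values were 56.0, 56.7 and 75.7 CPM, so the classes did not overlap. Wnt7b averaged 5.92 CPM in committed OPCs and 41.7 CPM in OPCs (-1.71 ± 0.17, adjusted p = 3.2e-07). Wnt7a had 3 counts in committed OPCs, a count ratio of 0.0821 to OPCs with a 95% counting interval of 0.0168 to 0.243 (log2 fold -1.25 ± 0.21, adjusted p = 0.00014). Sfrp2 fell to 4.45 CPM in committed OPCs, against 36.8 CPM in OPCs, and Fzd9 to 5.20 CPM, against 24.2 CPM. Their log2 folds were -1.69 ± 0.19 for Sfrp2 (adjusted p = 1.7e-06) and -1.18 ± 0.22 for Fzd9 (adjusted p = 0.00035). Fzd3 fell to 47.5 CPM, against 96.9 CPM in OPCs (-0.91 ± 0.14, adjusted p = 3.4e-05). Wnt4 fell to 0, 5.12 and 0 CPM in committed OPCs, against 15.2, 16.4 and 10.8 CPM in OPCs (-1.07 ± 0.40, adjusted p = 0.044), and its call did not hold without library 1 (adjusted p = 0.10) or library 2 (0.17), or with centring (0.063).

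In all, 7 of 20 tested members passed between committed OPCs and OPCs, beside 36.2% of all genes; 1 was higher (14.7% of all genes) and 6 lower (21.5%). The median log2 fold of the members was -0.26, against -0.05 over all genes. Of 54 other Wnt pathway genes, 38 were tested; 6 rose and 13 fell. Ccnd1, cyclin D1, fell to 32.1 ± 9.50 CPM in committed OPCs, against 286 ± 16.7 CPM in OPCs (-2.84 ± 0.16, adjusted p = 2.8e-10), and Prickle1, a planar polarity gene, rose to 39.4 ± 5.05 CPM, against 3.03 ± 0.718 CPM (1.92 ± 0.17, adjusted p = 5.6e-08). Dividing cells, those with a count of Mki67 or Top2a, were 5.71% of committed OPCs and 25.8% of OPCs, and without them 6 members passed, Wnt4 being lost. The summed level of Mbp, Mag and Mog, genes of myelinating oligodendrocytes, was 5855 to 11185 CPM in committed OPCs and 42.1 to 48.6 CPM in OPCs; haemoglobin genes with Alas2 summed to 641 to 1807 CPM in committed OPCs and 2725 to 5927 CPM in OPCs. The part of either in these differences was not tested.

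In OPCs, set against astrocytes, 2 of 4 tested ligands, 4 of 8 receptors and 2 of 4 inhibitors were lower, as were Znrf3, Axin2 and Lef1, and 1 inhibitor was higher. Dkk3 averaged 5.80 ± 0.667 CPM in OPCs and 182 ± 21 CPM in astrocytes (SD over n = 3 libraries), with a log2 fold of -3.60 ± 0.22 (adjusted p = 2.4e-10). Fzd10 fell to 0, 0.908 and 0.888 CPM in OPCs (-2.31 ± 0.21, adjusted p = 5.9e-08) and Fzd2 to 6.40, 5.63 and 5.15 CPM (-2.19 ± 0.16, adjusted p = 2.0e-09). Neither overlapped the astrocyte values given above. Znrf3 measured 21.9, 20.4 and 22.0 CPM in OPCs (-1.75 ± 0.21, adjusted p = 1.6e-06). Lef1 measured 1.56, 0.458 and 1.30 CPM in OPCs (-1.54 ± 0.17, adjusted p = 7.9e-07), and Wnt5a 2.51, 3.78 and 3.10 CPM (-1.33 ± 0.34, adjusted p = 0.0040). Sfrp1 was lower in OPCs (-1.52 ± 0.43, adjusted p = 0.0077), and this call did not hold without library 2 (adjusted p = 0.11). The 1 member that passed as higher was Sfrp2. It averaged 36.8 ± 6.06 CPM in OPCs and 8.64 ± 1.43 CPM in astrocytes (1.32 ± 0.19, adjusted p = 2.1e-05). Wnt4 was also higher in OPCs (log2 fold 0.73) but did not pass (limma adjusted p = 0.16). It passed with the fit limited to the compared classes (limma adjusted p = 7.4e-05) and with profiles weighted by class (5.2e-06). Wnt7a was lower in OPCs (-1.30 ± 0.21, adjusted p = 7.1e-05), while Wnt7b did not pass (0.06 ± 0.17, adjusted p = 0.82).

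Of 20 tested members 12 passed between OPCs and astrocytes, beside 41.7% of all genes; 1 was higher (27.3% of all genes) and 11 lower (14.4%). The members' median log2 fold was -0.95, against 0.14 over all genes. The share of all genes depended on the fit. Of 10041 genes, 4190 passed here, 7548 with the fit limited to these classes, and 7527 with profiles weighted by class. Wnt4 (higher) and Fzd4, Dkk2 and Tcf7l2 (lower) also passed in both of those fits. The SE given here uses a spread shared by all classes, fibroblasts included. It may therefore be too large for genes whose libraries spread less in OPCs and astrocytes than in fibroblasts. Of the 38 other pathway genes tested, 5 rose and 9 fell. Gpc4, a glypican, fell to 3.72 ± 1.54 CPM in OPCs, against 55.4 ± 0.905 CPM in astrocytes (-2.26 ± 0.13, adjusted p = 1.6e-10). Ndp, which encodes the Fzd4 ligand Norrin, fell to 15.5 ± 2.92 CPM, against 67.5 ± 2.28 CPM (-1.61 ± 0.15, adjusted p = 7.5e-08). Dividing cells were 25.8% of OPCs and 11.3% of astrocytes. With them removed Fzd6 (-0.89) lost its call (limma adjusted p = 0.067).

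In neuroblasts none of the tested members passed above astrocytes. Tcf7l2 averaged 4.09 ± 0.296 CPM in neuroblasts and 74.8 ± 4.87 CPM in astrocytes (SD, n = 3 libraries; log2 fold -2.59 ± 0.15, adjusted p = 4.9e-11). Znrf3 (-2.85 ± 0.21, adjusted p = 1.2e-09) and Axin2 (-1.62 ± 0.21, adjusted p = 3.4e-06) also fell, and their values in every library are given above. Wnt7b fell to 1.16, 1.07 and 0.236 CPM in neuroblasts (-2.19 ± 0.17, adjusted p = 3.9e-09). Among receptors Fzd9 fell to 1.12, 0.446 and 0.644 CPM (-2.66 ± 0.22, adjusted p = 8.3e-09) and Fzd10 to 0.202, 2.01 and 0.604 CPM (-2.26 ± 0.21, adjusted p = 3.8e-08). Among inhibitors Dkk3 fell to 10.9, 5.45 and 12.3 CPM (-3.31 ± 0.22, adjusted p = 3.5e-10) and Sfrp1 to 38.2, 45.4 and 24.4 CPM (-1.73 ± 0.43, adjusted p = 0.0020). None of these overlapped the astrocyte values. Fzd3 did not pass at 102 CPM in neuroblasts and 92.9 CPM in astrocytes (0.12 ± 0.14, adjusted p = 0.47); it passed as higher, at 0.41 (adjusted p = 0.013), when each profile was centred on its median gene.

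Of 20 tested members 14 passed between neuroblasts and astrocytes, beside 58.8% of all genes; 0 were higher (24.0% of all genes) and 14 lower (34.7%), and at an unadjusted limma p under 0.05 0 were higher. The members' median log2 fold was -1.42, against -0.12 over all genes, and centring moved the median of all genes to 0.17. Of the 38 other pathway genes, 8 rose and 19 fell. Tspan12, a partner of Fzd4, fell to 12.4 ± 4.43 CPM in neuroblasts, against 157 ± 2.22 CPM in astrocytes (-2.92 ± 0.14, adjusted p = 4.0e-12), and Ccnd1 to 9.92 ± 2.04 CPM, against 130 ± 4.5 CPM (-2.81 ± 0.16, adjusted p = 7.0e-11). Neuroblasts had a median of 1871 detected genes per cell and astrocytes 2762, and 33.4% of neuroblasts and 11.3% of astrocytes were dividing; the part of detection in these differences was not tested. Lrp6 (-0.52 ± 0.16) lost its call without library 1 (adjusted p = 0.10) or library 2 (0.052), and Dkk2 (-0.51 ± 0.17) without library 1 (0.12). With dividing cells removed Lrp6 also lost its call (limma adjusted p = 0.084). With each profile centred on its median gene the split was 1 higher and 12 lower, and Lrp6 (-0.23, adjusted p = 0.22) and Dkk2 (-0.22, adjusted p = 0.28) did not pass.

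Endothelium had higher Lef1, Fzd6 and Fzd4 than astrocytes, and lower Wnt7a, Fzd2, Fzd3, Fzd9, Dkk3 and Sfrp1. Fzd6 averaged 212 ± 9.54 CPM in endothelium and 11.5 ± 2.14 CPM in astrocytes (SD, n = 3 libraries; log2 fold 3.37 ± 0.22, adjusted p = 1.4e-10), and Lef1 278 ± 13.1 CPM in endothelium and 22.3 ± 2.04 CPM in astrocytes (3.15 ± 0.17, adjusted p = 1.6e-11). Fzd4 rose as well (2.39 ± 0.33, adjusted p = 4.6e-06). Dkk3 fell to 1.88, 3.36 and 1.58 CPM in endothelium (-3.97 ± 0.22, adjusted p = 1.7e-11) and Sfrp1 to 1.87, 2.47 and 0.774 CPM (-3.68 ± 0.43, adjusted p = 5.6e-07). Fzd3 (-2.54 ± 0.14, adjusted p = 1.2e-11) and Fzd2 (-2.74 ± 0.16, adjusted p = 2.7e-11) fell too, Fzd3 to 7.81, 6.71 and 8.68 CPM and Fzd2 to 1.14, 0.970 and 0 CPM in endothelium. Wnt7a, with 1 count in endothelium, had a count ratio of 0.00350 to astrocytes (95% counting interval 8.9e-05 to 0.0196; log2 fold -2.68 ± 0.21, adjusted p = 3.3e-09). Fzd9, with 2 counts, had a ratio of 0.00681 (0.00082 to 0.0246; -2.71 ± 0.22, adjusted p = 4.8e-09). The classes did not overlap for any of these genes.

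Of 20 tested members 15 passed between endothelium and astrocytes, beside 59.8% of all genes; 4 were higher (24.1% of all genes) and 11 lower (35.7%). With each profile centred on its median gene the split was 6 higher and 10 lower. The members' median log2 fold was -0.70, against -0.15 over all genes. Of the other pathway genes 11 rose and 19 fell, and the largest both rose. Tcf7, a further DNA-binding partner of beta-catenin, averaged 140 ± 3.55 CPM in endothelium and 4.87 ± 0.898 CPM in astrocytes (3.34 ± 0.14, adjusted p = 3.3e-13), and Notum, an enzyme that strips the lipid from Wnts, 176 ± 22.8 CPM and 7.57 ± 1.43 CPM (3.40 ± 0.26, adjusted p = 2.1e-09). Lrp5 (0.66 ± 0.23) lost its call without library 2 (adjusted p = 0.060) or 3 (0.080), and Axin2 (-0.58 ± 0.21) without library 1 (0.12) or 3 (0.095) and with centring (0.13). With dividing cells removed Lrp5 (limma adjusted p = 0.060) and Axin2 (0.10) also lost their calls. Haemoglobin genes with Alas2 summed to 13302 to 15447 CPM in endothelium and 3759 to 5981 CPM in astrocytes; their part in these differences was not tested.

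Within the vessel wall, endothelium was compared with pericytes. Lef1, Fzd4 and Fzd6 were higher in endothelium, and Sfrp2, Dkk2, Dkk3 and Axin2 lower. Lef1 averaged 278 ± 13.1 CPM in endothelium and 30.3 ± 1.87 CPM in pericytes (SD, n = 3 libraries; log2 fold 2.84 ± 0.17, adjusted p = 1.3e-10). Fzd4 averaged 86.1 ± 8.17 CPM in endothelium and 6.68 ± 2.22 CPM in pericytes (2.53 ± 0.33, adjusted p = 3.8e-06), and Fzd6 212 ± 9.54 CPM and 97.6 ± 14.3 CPM (1.05 ± 0.22, adjusted p = 0.00053). The classes did not overlap. Sfrp2 had 3 counts in endothelium, at 0.517, 0.965 and 0 CPM, a count ratio of 0.00246 to pericytes (95% counting interval 0.00051 to 0.00721; log2 fold -4.63 ± 0.19, adjusted p = 5.5e-13). Dkk3 (-2.78 ± 0.22, adjusted p = 4.5e-09) and Dkk2 (-2.16 ± 0.17, adjusted p = 5.2e-09) fell as well. Axin2 averaged 19.96 ± 0.788 CPM in endothelium and 77.2 ± 12.5 CPM in pericytes (-1.53 ± 0.21, adjusted p = 9.2e-06). Lrp5 fell to 24.2, 18.2 and 20.8 CPM in endothelium, against 45.8, 32.1 and 44.9 CPM in pericytes (-0.71 ± 0.23, adjusted p = 0.016), a call that did not hold without library 2 (adjusted p = 0.053) or 3 (0.12). With dividing cells removed it did not hold either (limma adjusted p = 0.064).

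Of 20 tested members 10 passed between endothelium and pericytes, beside 45.3% of all genes; 4 were higher (17.2% of all genes) and 6 lower (28.1%), and 6 and 5 with centring on the median gene. The median log2 fold of the members was -0.14, against -0.13 over all genes. None of the 4 tested ligands passed limma's threshold, and 0 had an unadjusted p under 0.05, Wnt5a averaging 19.1 ± 5.64 CPM in endothelium and 24.6 ± 2.43 CPM in pericytes (adjusted p = 0.57). Wnt7a and Wnt7b were close to absent from both classes, where the CPM + 10 scale leaves little room for a difference. Wnt5b, a ligand under the minimum and so not tested, averaged 27.9 CPM in pericytes, and its second class averaged 5.36 CPM. Of the other pathway genes 8 rose and 13 fell. Notum, with 2 counts in pericytes, had a count ratio of 430 (95% counting interval 119 to 3553; log2 fold 4.14 ± 0.26, adjusted p = 2.1e-10), and Ptk7, a receptor-like protein of planar polarity, fell to 2.82 ± 2.07 CPM in endothelium, against 96.3 ± 5.48 CPM in pericytes (-3.06 ± 0.17, adjusted p = 5.0e-11). The pericyte class also held smooth muscle genes, with Acta2, Tagln and Myh11 summing to 358 to 966 CPM, against 3.13 to 7.12 CPM in endothelium, and haemoglobin genes with Alas2 summed to 13302 to 15447 CPM in endothelium and 1724 to 9022 CPM in pericytes; their part was not tested. Fzd3 (-0.43 ± 0.14) and Tcf7l2 (0.55 ± 0.15) each lost their call without library 1 (adjusted p = 0.18 and 0.087) or 2 (0.054 and 0.063), and Fzd3 also with centring (0.066).

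Fibroblasts, set against pericytes as the other mesenchymal class, had higher Wnt4, Wnt5a, Fzd2, Fzd10 and Sfrp1 and lower Sfrp2, Dkk2 and Fzd6. The SE in this comparison uses a spread shared by all 7 classes. Fibroblast libraries spread widely for several genes, among them Wnt4, Wnt5a, Sfrp1, Fzd10 and Fzd6. The SEs and p-values of such genes may therefore be too small. Wnt4 measured 415, 175 and 48.0 CPM in fibroblasts and 1.41, 1.49 and 1.97 CPM in pericytes, a log2 fold of 3.84 ± 0.40 (adjusted p = 3.4e-07), which was 3.15 without library 1 and 4.62 without library 3. Wnt5a rose by 2.03 ± 0.34 (adjusted p = 0.00010). Fzd2 measured 67.6, 47.6 and 92.1 CPM in fibroblasts and 1.69, 1.31 and 2.21 CPM in pericytes (2.71 ± 0.16, adjusted p = 1.0e-10), and Fzd10 averaged 36.4 ± 20.2 CPM in fibroblasts and 2.34 ± 0.903 CPM in pericytes (1.82 ± 0.21, adjusted p = 1.5e-06). Sfrp1 rose to 35.4, 69.7 and 285 CPM in fibroblasts, against 4.68, 2.22 and 1.27 CPM in pericytes (3.02 ± 0.43, adjusted p = 1.6e-05; 3.71 without library 1 and 2.17 without library 3). Every fibroblast library lay above every pericyte library for these genes. Sfrp2, with 0 counts in fibroblasts, was at least 38.5-fold lower than in pericytes, taking 3 counts over the class as the limit (limma adjusted p = 9.0e-13). Dkk2, with 1 count, had a count ratio of 0.0282 (95% counting interval 0.00071 to 0.158; log2 fold -2.83 ± 0.17, adjusted p = 2.0e-10). Fzd6 fell to 20.5, 61.3 and 44.9 CPM in fibroblasts, against 111, 99.7 and 82.3 CPM in pericytes (-1.12 ± 0.22, adjusted p = 0.00038).

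Of 20 tested members 12 passed between fibroblasts and pericytes, beside 42.1% of all genes; 8 were higher (18.8% of all genes) and 4 lower (23.4%). The members' median log2 fold was 0.34, against -0.06 over all genes. The share of all genes depended on the fit. Of 10041 genes, 4229 passed here, 1657 with the fit limited to these classes, and 1990 with profiles weighted by class. Of the other pathway genes 12 rose and 10 fell; Tspan12 fell to 8.38 ± 2.92 CPM in fibroblasts, against 161 ± 19.8 CPM in pericytes (-3.22 ± 0.14, adjusted p = 1.4e-12), and Notum had a count ratio of 230 (95% counting interval 59.9 to 1960; log2 fold 3.07 ± 0.26, adjusted p = 2.6e-08). The 7 endothelial markers summed to 1410 to 1808 CPM in fibroblasts and 108 to 135 CPM in pericytes, with none at 0; Itm2a averaged 1451 CPM and Cdh5 157 CPM in fibroblasts, where the other 5 averaged 2.39 CPM (Pecam1) to 14.0 CPM (Ly6c1); Cdh5 averaged 1.28 CPM in pericytes. Lef1 also rose (1.04 ± 0.17, adjusted p = 9.1e-05), and the part of the endothelial markers in it was not tested. Astrocyte markers summed to 596 to 1126 CPM in fibroblasts and 155 to 206 CPM in pericytes, with Aldh1l1 at 0 in fibroblasts. Most of the fibroblast sum was Slc1a3, averaging 697 CPM against 53.9 CPM in pericytes. Slc4a4 was also higher in fibroblasts (56.0 against 12.2 CPM), and Slc1a2, Aldoc, Mlc1 and Fgfr3 averaged lower there. Haemoglobin genes with Alas2 summed to 452 to 1190 CPM in fibroblasts and 1724 to 9022 CPM in pericytes. The part of the astrocyte and haemoglobin genes was not tested. The calls of Lrp5 and Znrf3 did not hold without library 1 (adjusted p = 0.47 and 0.29), that of Lrp5 without library 3 (0.074), and those of Znrf3 and Tcf7l2 without library 2 (0.38 and 0.060). With dividing cells removed Lrp5 also lost its call (limma adjusted p = 0.11).

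**Figure D3:**
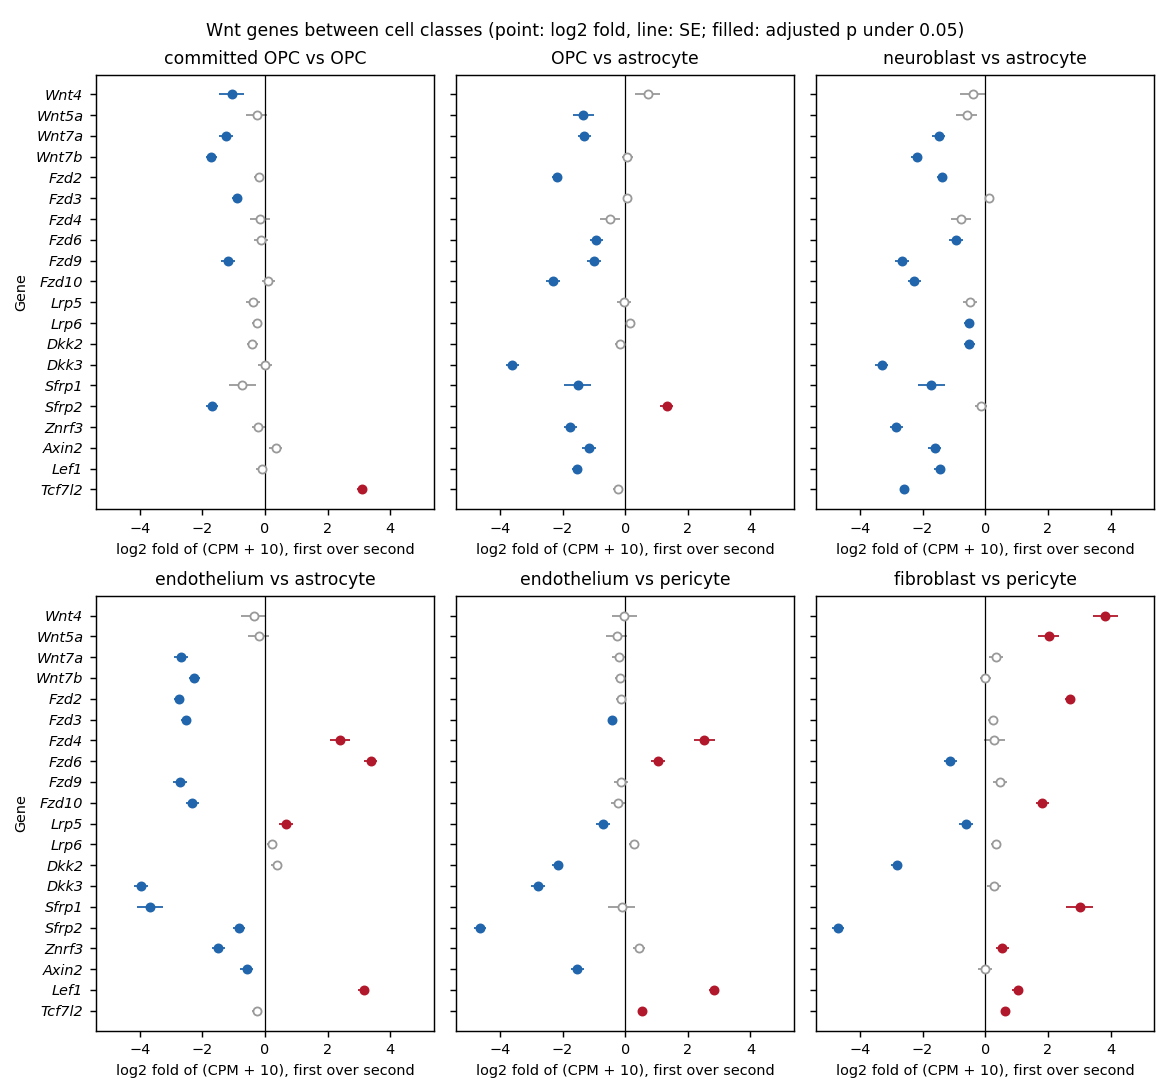
Log2 fold on the log2(CPM + 10) scale (horizontal axis, bars are ± SE) of the 20 tested members in the 6 comparisons, first-named class over second; filled points passed an adjusted p of 0.05, red higher and blue lower. Tcf7l2 is the 1 filled red point of committed OPCs over OPCs at 3.08, and the neuroblast panel has filled points on the lower side only.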

How the data were processed

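The labels' protocols describe flash-frozen prefrontal cortex and Trizol extraction, which leaves the isolation of single cells undescribed, then droplet libraries on the 10x Genomics Chromium platform and an Illumina NovaSeq. Tools named in the submitters' processing notes are CASAVA 1.8, Cell Ranger and Seurat, and the build is mm10. Deposited values are on a natural log scale, ln(1 + n): all 34958786 values above 0 gave whole numbers n, within 1e-06, when the log was undone. These sum to 4422 to 8135 per cell and are read as counts corrected for depth by a method not given in the sources used here; the depth before correction, and so counting error before it, is unknown, and intervals cover counting error of the corrected counts only. The authors' filters on cells and genes, and whether reads were counted by strand, are not given in the sources used here. Wnt5a, Wnt6, Wnt7b, Sfrp2, Rspo1, Rspo3, Axin2 and Lef1 overlap an annotated antisense gene (GENCODE vM21). Wnt5b overlaps Fbxl14 on the other strand, and Wnt11, Fzd3, Fzd5 and Fzd6 also overlap a gene there. Reads of these genes could not be told apart without strand. Wnt2b, Fzd3, Rspo3, Lef1 and Tcf7l2 overlap a gene on the same strand.

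Corrected counts were scaled to 1000000 per cell, averaged per class and library, and fitted as log2(mean CPM + 10) with limma 3.58.1 in R 4.3.3 (eBayes with trend, library as a block, 21 profiles of 7 classes, 12 residual degrees of freedom). All classes of a library come from the same cells' preparation, so library is a true block. The 10041 genes averaging 10 CPM or more across classes were tested, with Benjamini-Hochberg adjustment. Cells were not used as replicates. Doublets were treated by dropping cells that met 2 or more class gates; Scrublet (scanpy 1.11.5) marked 1.52 to 2.51% of cells per library and their removal was an alternative. In each comparison up to 8 members are named, those with the largest absolute log2 fold that passed in the same direction in all 3 libraries, and the 2 largest of the other pathway genes; others were named after their values were seen. The members and lists were chosen with earlier results of these data known. The fit was tried on simulated data for endothelium over pericytes, with the same spread beyond counting in every class and no library effect. That setting cannot show how the fit behaves where classes spread unequally, as fibroblasts do here. Alternatives covered the added CPM, the minimum, summed counts, centring on the median gene, no library block, only the compared classes, class weights, each library left out, Scrublet, a gate of 2 counts and removal of dividing cells.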

Additional observations from a re-analysis of the deposited data

How the results depend on the processing

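The log2 folds of the 20 tested members in 6 comparisons and of the 12 pathway gene folds named in the text, 132 in all, were recomputed under 15 alternatives; the folds of the other pathway genes were counted but not followed singly. Of these 1980 folds 30 changed sign, none of them past the threshold with the settings of the text, 59 lost their call and 48 gained one. With all libraries kept, Wnt4 lost its call between committed OPCs and OPCs under 7 of 12 settings (adjusted p 0.0504 to 0.455), Lrp5 and Znrf3 theirs between fibroblasts and pericytes under 5 each (0.068 to 0.31 and 0.054 to 0.38), and no other call was lost under more than 3. Without the filter on low values 16 members passed between endothelium and pericytes, 19 between fibroblasts and pericytes, and 35 in the test of any difference among the 7 classes, as more members were then tested. With the fit limited to the compared classes 11 members passed between committed OPCs and OPCs, and 9 between fibroblasts and pericytes. Over all genes that fit passed 4564 and 1657 in these comparisons, against 3635 and 4229 with the settings of the text. It passed 7548 for OPCs, 7284 for neuroblasts and 7659 for endothelium over astrocytes, against 4190, 5902 and 6004. For endothelium over pericytes it passed 5833, against 4550. Without the replicate block (library) the counts were 6 for committed OPCs over OPCs, 12 for OPCs, 14 for neuroblasts and 15 for endothelium over astrocytes, and 10 for endothelium and 11 for fibroblasts over pericytes; it lost Wnt4 and Znrf3, and no other member. Centring on the median gene moved the median log2 fold of all genes from 0.14 to 0.0074 for OPCs and from -0.15 to 0.041 for endothelium over astrocytes, and from -0.13 to -0.019 for endothelium over pericytes. Leaving out 1 library gave 6 to 7, 12 to 14, 13 to 17, 13 to 14, 8 to 10 and 11 to 12 in the same order. Weighting profiles by class took Lrp5, Znrf3 and Tcf7l2 from the calls between fibroblasts and pericytes (adjusted p = 0.19, 0.35 and 0.12); the cause was not tested. Fibroblasts are limited by 73 cells, and committed OPCs by 73 in library 3.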

Other observations

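Cells that met the OPC and the committed OPC gate and no other were left out of the classes and numbered 61, 66 and 29 in libraries 1, 2 and 3. Their Tcf7l2 level was 152, 109 and 235 CPM, below committed OPCs (513 to 817 CPM) and above OPCs (56.0 to 75.7 CPM) in every library. Wnt7b in them was 31.0, 21.3 and 76.2 CPM, overlapping OPCs, and Sfrp2 was 16.2, 12.2 and 21.1 CPM, between the 2 classes.

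The 3374 cells in no class, a mixture that was not divided further, held Sfrp1 at 166, 105 and 38.6 CPM, overlapping the astrocyte values, and Dkk3 at 67.6, 44.3 and 22.9 CPM. Their Tcf7l2 level was 48.6, 38.2 and 49.9 CPM and their Fzd3 level 58.0, 42.0 and 29.9 CPM. Lef1 in them was 1.75, 2.75 and 3.63 CPM and Fzd4 3.61, 3.35 and 4.26 CPM, far below endothelium.

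Further pathway genes outside the naming rule were looked up after their values were seen. Wls, which carries Wnts to the cell surface, measured 618, 608 and 617 CPM in pericytes and 418, 505 and 450 CPM in fibroblasts, and at most 106 CPM in any library of the other classes. Adgra2, part of the endothelial receptor for Wnt7a and Wnt7b, measured 58.2, 55.4 and 62.7 CPM in endothelium and 35.7, 37.4 and 45.1 CPM in pericytes. In fibroblasts Adgra2 measured 75.5, 22.8 and 24.6 CPM, which overlapped both, and it was 2.97 CPM or less in the OPC line, neuroblasts and astrocytes. Reck, named above with Adgra2, had a different order. It averaged 53.9 CPM in fibroblasts, 10.8 CPM in pericytes and 9.02 CPM in endothelium, and the last 2 classes overlapped. Reck did not pass between endothelium and astrocytes, where it averaged 3.49 CPM (log2 fold 0.48 ± 0.21, limma adjusted p = 0.057).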
